A study of Mus musculus with 36 samples.

Results

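The genes described here are 10 genes of the ATF4 amino acid stress response, taken by name from a list of that response and found in a count table of 24781 mouse genes. They are *Atf4*, *Ddit3*, *Trib3*, *Chac1*, *Sesn2*, *Asns*, *Psat1*, *Slc7a11*, *Slc3a2* and *Slc7a5*, and all 10 were in the table. When amino acids run short, uncharged transfer RNA activates the kinase GCN2, one of the kinases of the integrated stress response that phosphorylate the translation factor eIF2. General protein synthesis then slows, while translation of *Atf4* mRNA into the transcription factor ATF4 increases. ATF4 raises transcription of genes for amino acid synthesis, import and redox defence, and of feedback regulators, a response known in macrophages and T cells that compete with tumour cells for amino acids.

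The study asked how B cells and GABA (γ-aminobutyric acid, a neurotransmitter that B cells also make) alter immune cells in tumours. Mice were inoculated in the skin with MC38 cells, a mouse colon adenocarcinoma line, and on day 7 tumour-associated macrophages (TAMs, sorted as CD45+CD11b+F4/80 high) and CD8+ T cells (CD45+TCRβ+CD8+) were collected. Each library came from 100 sorted cells, with 1 library per mouse and cell type, and the molecules were barcoded before amplification, so that 3′ ends of distinct mRNA molecules were counted. For each of the 2 cell types there were 6 libraries from wild-type (WT) mice, 6 from *muMt*-/- mice and 6 from *muMt*-/- mice given GABA. WT mice were C57BL/6J or C57BL/6N and carried a placebo pellet. The *muMt*-/- mice were C57BL/6J, lack mature B cells because of a disrupted *Ighm* gene, and carried a placebo pellet. The GABA group was *muMt*-/- mice with a subcutaneous pellet that slowly releases GABA, placed the day before the tumour cells. The pellets, strains and ages (2 to 5 months, both sexes) are from the study's methods, and for the groups without GABA the labels give no treatment. *Ighm* was not analysed here and gives no check of the genotype.

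Macrophage libraries were deeper than T cell libraries. In TAMs the number of molecules had a median of 242756 in WT mice (range 206394 to 304100), 149960 in *muMt*-/- mice (100254 to 253608) and 192775 with GABA (151856 to 262606). In CD8+ T cells the median was 42065.5 in WT mice (22896 to 76898), 67121.5 in *muMt*-/- mice (51064 to 77839) and 80283 with GABA (65356 to 98015). The 10 genes together made up a small share of these molecules. They held 882 molecules (0.0601%), 534 (0.0541%) and 833 (0.069%) in the WT, *muMt*-/- and GABA groups of TAMs, and 162 (0.0616%), 253 (0.0627%) and 320 (0.0655%) in CD8+ T cells. Levels below are normalized numbers of molecules, the counts divided by a size factor of the library, scaled within a cell type unless stated otherwise. They compare libraries for 1 gene and not genes with each other. In sorted cells a smaller number of cells expressing a gene and less RNA of it per cell cannot be told apart.

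The defining markers of each sort were found in all of its libraries, and the CD8+ libraries also held macrophage RNA, described below. Each of the defining macrophage markers *Adgre1*, *Csf1r*, *Cd68* and *Lyz2* was found in all 18 TAM libraries, and each of the T cell markers *Cd3e*, *Cd3g*, *Cd8a* and *Cd8b1* in all 18 CD8+ libraries. The T cell list summed to at most 8.72 normalized molecules in a TAM library. Of the B cell receptor genes, *Cd79a* had 0 molecules in every library, and *Cd79b* had 6, 4 and 9 molecules in the WT, *muMt*-/- and GABA groups of TAMs and 5 in the GABA group of CD8+ T cells. The summed list of 7 epithelial genes was at most 2.21 normalized molecules in any library, with *Epcam* or *Krt8* the only genes found.

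Across conditions, no member passed the test that was corrected over all genes, and the members that came nearest in TAMs were *Slc7a11*, *Asns* and *Psat1*. The test was edgeR's quasi-likelihood test with Benjamini-Hochberg adjustment over all genes and adjusted p under 0.05 as threshold, on genes with a mean normalized number above 1. In TAMs 8 of the 10 members were tested, and *Chac1* and *Sesn2* were too low. Comparing *muMt*-/- with WT mice, 0 of 8 members passed, where 2.05% of all 9469 genes tested did, and 3 members (*Psat1*, *Slc7a11* and *Slc3a2*) had an unadjusted p under 0.05, where 14.9% of all genes had. The number of members with such a p was 1 without WT library 3 or *muMt*-/- library 4. It was 2 without WT library 1 or 2, and 4 of 9 without *muMt*-/- library 1. DESeq2 called 1 member, *Slc7a11*, and 282 of all 9469 genes, and gave no adjusted p for 4 other members. Comparing the GABA group with placebo-treated *muMt*-/- mice, 0 of 8 passed, against 0.0211% of all genes, and 3 (*Trib3*, *Asns* and *Psat1*) had an unadjusted p under 0.05, against 8.46%. Comparing it with WT mice, again 0 of 8 passed, against 0.0739% of all genes, and 3 (*Trib3*, *Asns* and *Slc7a11*) had an unadjusted p under 0.05, against 7.02%. DESeq2 called 0 members in these latter comparisons, where it called 62 and 13 of all 9469 genes, and gave no adjusted p for 6 of the 8 in each. The number of all genes past the threshold depended on the test, the filter and single libraries. With no filter on low numbers it was 343, 51 and 63 of 14986 in the 3 comparisons. For *muMt*-/- against WT mice it was 194, but 67 without *muMt*-/- library 4, 87 without WT library 1, 125 without WT library 6 and 338 without GABA library 1. For GABA against *muMt*-/- mice it was 2, but 36 of 9493 without GABA library 1, 12 without *muMt*-/- library 5, 6 without WT library 1 and 5 without *muMt*-/- library 2 or GABA library 2. For GABA against WT mice it was 7, but 2 without WT library 3 or 6 or GABA library 2 or 3, 3 without WT library 1, 2 or 4 or GABA library 1, and 4 without *muMt*-/- library 1 or 2.

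The direction of the members in TAMs can be read beside that of all genes. In *muMt*-/- against WT mice 4 members were higher and 4 lower, with a median log2 fold change of 0.000415 where that of all genes tested was -0.05 and 46.3% of them were higher. In the GABA group against *muMt*-/- mice 7 were higher and 1 lower, with a median of 0.47 against 0.06 for all genes, of which 55.8% were higher. In the GABA group against WT mice 7 were higher and 1 lower, with a median of 0.87 against 0.02, and 52% of all genes were higher. The comparisons share groups of libraries, so their values are not independent of each other, and the medians leave out the 2 members that were not tested.

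**Figure D1:**
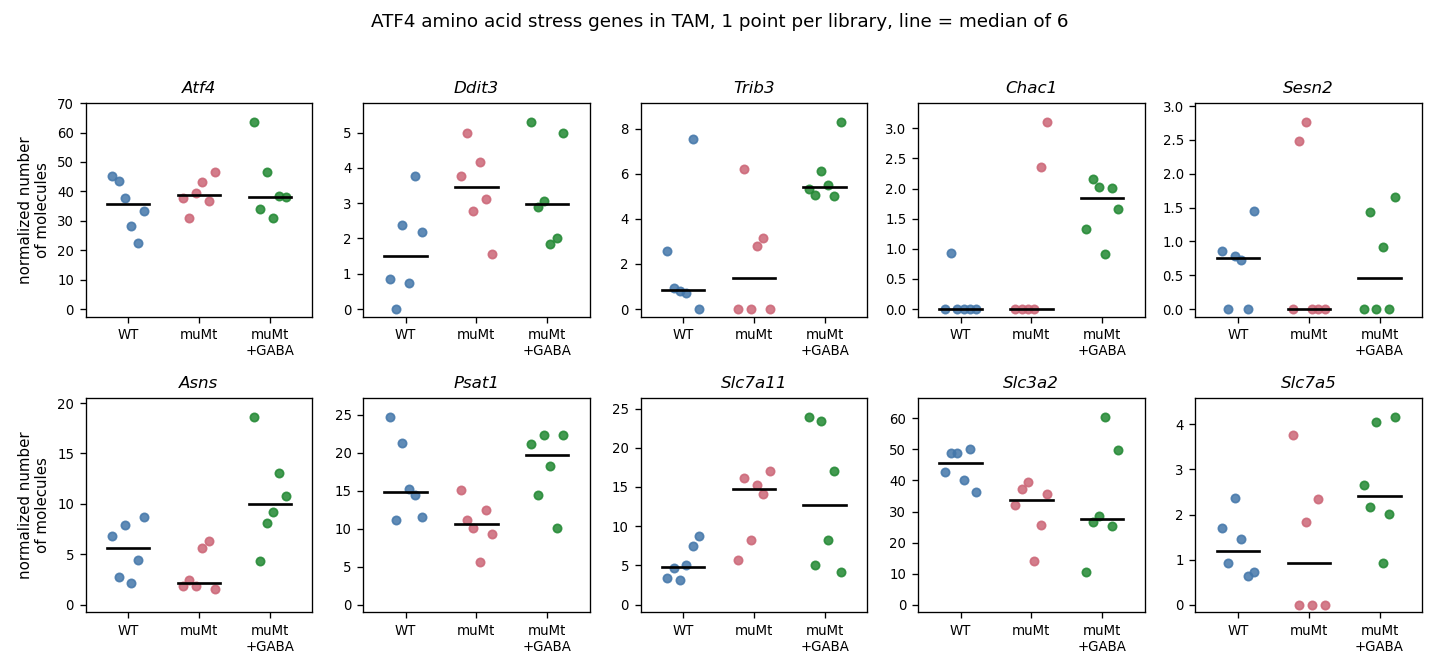
Normalized numbers of molecules of the 10 members in TAMs, with 1 point per library, 6 libraries per group and a line at the median; each panel has its own vertical axis, which starts near 0. *Trib3* and *Chac1* have at least 1 molecule in all 6 libraries of the GABA group, *Slc7a11* is spread from 4.16 to 23.9 in that group, and no member has groups without overlap.

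*Atf4* itself (chr15:80255184-80257545 in GRCm38.p6) was found in every library, and its mRNA level was close in the TAM groups. In WT mice it had a lowest, median and highest normalized number of 22.6, 35.6 and 45.2, in *muMt*-/- mice of 31.1, 38.7 and 46.6, and with GABA of 31.1, 38.2 and 63.7. The ranges of the groups overlapped, and the highest value belonged to library 1 of the GABA group. *Atf4* had a log2 fold change of 0.14 (SE 0.191, adjusted p = 0.807) for *muMt*-/- against WT mice and 0.10 (SE 0.191, adjusted p = 0.927) for GABA against *muMt*-/- mice. For the first, the 95% interval ran from -0.23 to 0.52. Since ATF4 is regulated at translation, these counts do not measure the protein.

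*Ddit3*, which encodes the stress-induced factor CHOP, was sparse in TAMs. Its normalized number was 0, 1.52 and 3.77 (lowest, median, highest) in WT mice, 1.55, 3.45 and 4.98 in *muMt*-/- mice and 1.83, 2.97 and 5.31 with GABA. All 6 *muMt*-/- libraries and all 6 GABA libraries lay above the WT median, 3 and 2 of them above the highest WT library, but the ranges overlapped. The log2 fold changes against WT mice were 0.87 (SE 0.548, adjusted p = 0.45) and 0.86 (SE 0.527, adjusted p = 0.765). *Ddit3* (chr10:127290793-127296291) overlaps *Mars*, a gene on the other strand, and how the authors' counting treated strand is not stated, so its molecules are uncertain to that extent.

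*Trib3* encodes a pseudokinase that binds ATF4 and restrains its activity. It had at least 1 molecule in 5 of 6 WT libraries, 3 of 6 *muMt*-/- libraries and 6 of 6 GABA libraries of TAMs. The normalized number was 0, 0.856 and 7.53 in WT mice, 0, 1.39 and 6.22 in *muMt*-/- mice and 5.03, 5.4 and 8.31 with GABA. In the GABA group 5 libraries lay at 5.03 to 6.1 and library 6 apart at 8.31, and all 6 lay above the medians of the other groups, while library 5 of the WT group and library 2 of the *muMt*-/- group reached as high. For GABA against *muMt*-/- mice *Trib3* had a log2 fold change of 1.42 (SE 0.653, adjusted p = 0.488), with a 95% interval from 0.14 to 2.70. Without *muMt*-/- library 2 it was 2.01 (adjusted p = 0.403). Against WT mice it was 1.35 (SE 0.561, adjusted p = 0.562), and 2.48 (adjusted p = 0.107) without WT library 5.

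*Chac1*, which encodes an enzyme that breaks down glutathione, was near the limit of detection, with 17 molecules in the 18 TAM libraries. There was 1 molecule in 1 of 6 WT libraries, 5 molecules in 2 of 6 *muMt*-/- libraries and 11 molecules in 6 of 6 GABA libraries. The GABA libraries held 1 to 3 molecules each (normalized numbers 0.916, 1.84 and 2.16), and both other groups had medians of 0. The 2 *muMt*-/- libraries with the gene, at 2.35 and 3.11, lay above every GABA library. Fitted without the filter on low numbers, *Chac1* had a log2 fold change of 2.88 (adjusted p = 0.223) for GABA against WT mice and 0.77 (adjusted p = 0.754) for GABA against *muMt*-/- mice, neither past the threshold. For *muMt*-/- against WT mice that fit gave 2.12 (adjusted p = 0.399), also not past it. With 12 libraries in the fit the adjusted p for GABA against WT mice was 0.335. *Sesn2*, whose product senses leucine and inhibits mTORC1 signalling, had 5 molecules in each TAM group, in 4, 2 and 3 of 6 libraries for WT, *muMt*-/- and GABA.

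Of the genes for amino acid synthesis, *Asns* (asparagine synthetase, chr6:7675165-7693209) was lowest in *muMt*-/- TAMs and highest with GABA. Its normalized number was 2.18, 5.61 and 8.72 in WT mice, 1.55, 2.19 and 6.27 in *muMt*-/- mice and 4.33, 9.98 and 18.6 with GABA. In the GABA group 5 of 6 libraries lay above the highest *muMt*-/- library and 4 of 6 above the highest WT library, with library 2 the lowest of the group. The GABA against *muMt*-/- log2 fold change of *Asns* was 1.52 (SE 0.442, adjusted p = 0.195), a 2.87-fold difference with a 95% interval of the log2 value from 0.65 to 2.39. For *muMt*-/- against WT mice it was -0.64 (SE 0.462, adjusted p = 0.542), and for GABA against WT mice 0.88 (SE 0.345, adjusted p = 0.54). Without the filter on low numbers the GABA against *muMt*-/- difference passed the threshold (adjusted p = 0.0383), in a fit where 51 of all 14986 genes did, against 2 of 9469 with the filter. Its adjusted p ran from 0.0383 to 0.352 over all alternatives that gave one.

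*Psat1* (phosphoserine aminotransferase, in the pathway that makes serine) had the same order of medians in TAMs. Its normalized number was 11.1, 14.9 and 24.7 in WT mice, 5.58, 10.7 and 15.1 in *muMt*-/- mice and 10.1, 19.8 and 22.4 with GABA. Of the *muMt*-/- libraries 3 of 6 lay below the lowest WT library, and 4 of 6 GABA libraries lay above the highest *muMt*-/- library, but each pair of groups overlapped. Log2 fold changes of *Psat1* were -0.63 (SE 0.266, adjusted p = 0.23) for *muMt*-/- against WT mice, 0.77 (SE 0.269, adjusted p = 0.333) for GABA against *muMt*-/- mice and 0.14 (SE 0.226, adjusted p = 0.94) for GABA against WT mice.

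Other genes of serine, glycine, one-carbon and proline synthesis were read beside *Psat1*. In *muMt*-/- against WT TAMs 0 of 10 tested were higher, 10 were lower and 0 passed the threshold, 4 had an unadjusted p under 0.05, and the list median was -0.57 against -0.05 for all genes. In GABA against *muMt*-/- TAMs 9 were higher and 1 lower, 0 passed, and the list median was 0.40 against 0.06. There 2 genes had an unadjusted p under 0.05. The aminoacyl-tRNA synthetases of the cytosol, which charge transfer RNA, had 6 of 20 higher and 14 lower in the former comparison (median -0.25) and 16 higher and 4 lower in the latter (median 0.42). None of the 20 passed the threshold in either, and 3 and 5 had an unadjusted p under 0.05. Of all genes 14.9% and 8.46% had such a p in the 2 comparisons, and 46.3% and 55.8% were higher. DESeq2 called 4 genes over all 8 lists in the former comparison and 0 in the latter, where it called 282 and 62 of all 9469 genes. In GABA against WT TAMs 4 of the 10 genes of synthesis were higher and 6 lower (median -0.12), and 13 of the 20 synthetases were higher and 7 lower (median 0.11), against 0.02 for all genes; 0 passed, and 1 and 3 had an unadjusted p under 0.05, against 7.02% of all genes.

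The transporter members act as pairs. *Slc7a11* encodes xCT, which imports cystine in exchange for glutamate, and *Slc3a2* encodes its heavy chain CD98, which also pairs with the leucine transporter LAT1 encoded by *Slc7a5*. *Slc7a11* (chr3:50364936-50499087) had a normalized number of 3.16, 4.85 and 8.72 in WT TAMs, 5.65, 14.7 and 17.1 in *muMt*-/- TAMs and 4.16, 12.7 and 23.9 with GABA. All 6 *muMt*-/- libraries were above the WT median and 4 of 6 above the highest WT library, while 3 GABA libraries lay at 17.1 to 23.9 and the other 3 at 4.16 to 8.24.

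The log2 fold change of *Slc7a11* was 1.17 (SE 0.382, adjusted p = 0.0873) for *muMt*-/- against WT mice, a 2.25-fold difference with a 95% interval of the log2 value from 0.42 to 1.92. It was 1.18 (SE 0.369, adjusted p = 0.367) for GABA against WT mice, which share the WT libraries with the former. For GABA against *muMt*-/- mice it was 0.00 (SE 0.339, adjusted p = 1), with an interval from -0.66 to 0.67. For *muMt*-/- against WT mice the difference passed the threshold with DESeq2 (adjusted p = 0.0498), without the filter (0.0144) and in a fit to the 12 libraries compared (0.0254), where 282 of 9469, 343 of 14986 and 323 of 9399 genes passed against 194 of 9469, and its adjusted p ran from 0.0144 to 0.192 over all alternatives. For GABA against WT mice it passed without the filter (adjusted p = 0.0294, range 0.0294 to 0.705), as did 63 of 14986 genes against 7 of 9469 with it.

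The heavy chain *Slc3a2* (chr19:8706882-8723369) did not have the order of *Slc7a11* in TAMs. Its normalized number was 36.3, 45.8 and 50.2 in WT mice, 13.9, 33.9 and 39.6 in *muMt*-/- mice and 10.6, 27.6 and 60.4 with GABA. All 6 *muMt*-/- libraries lay below the WT median and 4 of 6 below the lowest WT library, and the GABA group held both the lowest and the highest TAM library for this gene. Log2 fold changes of *Slc3a2* were -0.55 (SE 0.249, adjusted p = 0.281) for *muMt*-/- against WT mice, -0.37 (SE 0.237, adjusted p = 0.793) for GABA against WT mice and 0.18 (SE 0.259, adjusted p = 0.906) for GABA against *muMt*-/- mice. *Slc7a5* had 10, 7 and 17 molecules in the WT, *muMt*-/- and GABA groups of TAMs, with normalized medians of 1.19, 0.922 and 2.41. Its log2 fold change of GABA against *muMt*-/- mice was 0.92 (SE 0.696, adjusted p = 0.746).

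Some genes around these transporters did pass the test in TAMs. Of 13 tested amino acid transporters outside the members, 2 rose and 0 fell in *muMt*-/- against WT mice, where 2.05% of all genes passed. In all, 4 of the 13 were higher and 9 lower, with a median of -0.18 against -0.05 for all genes. *Slc7a2*, which imports arginine and other cationic amino acids, rose from 3.69, 9.82 and 15.3 in WT mice to 13.8, 39.8 and 46.0 in *muMt*-/- mice (log2 fold change 1.80, SE 0.265, adjusted p = 8.6e-05). *Slc43a2*, a carrier of large neutral amino acids like LAT1, rose from 11.1, 15.9 and 18.2 to 18.8, 30.9 and 33.9 (log2 fold change 0.83, SE 0.201, adjusted p = 0.0193). In each of these pairs the *muMt*-/- libraries were high, with no overlap for *Slc43a2* and a small one for *Slc7a2*. In GABA against WT mice 1 of 13 rose, *Slc7a2*, with 18.3, 23.8 and 27.4 in the GABA group (log2 fold change 1.31, SE 0.268, adjusted p = 0.0386), where 0.0739% of all genes passed; 6 were higher and 7 lower, with a median of -0.20 against 0.02. In GABA against *muMt*-/- mice 0 of 13 passed, 2 had an unadjusted p under 0.05 and DESeq2 called 0. *Gsr*, which encodes glutathione reductase, was the gene that rose among 11 tested NRF2 targets and cystine-glutathione genes in *muMt*-/- against WT mice, from 2.77, 6.62 and 8.68 to 10.9, 12.9 and 18.7 (log2 fold change 1.11, SE 0.306, adjusted p = 0.0372). Of the 11 genes 10 were higher and 1 lower, with a median of 0.22 against -0.05 for all genes, and 0 of 11 passed in the other TAM comparisons, with 0 (GABA against *muMt*-/-) and 3 (GABA against WT) at an unadjusted p under 0.05.

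Of these calls that of *Slc7a2* in *muMt*-/- against WT mice held without any 1 library, and the others did not. *Gsr* missed the threshold without WT library 1 (adjusted p = 0.08), 2 (0.0862), 4 (0.0804) or 6 (0.0573) and without *muMt*-/- library 2 (0.106), 3 (0.088), 4 (0.0728) or 5 (0.0544). *Slc43a2* missed it without WT library 1 (adjusted p = 0.0596) and without *muMt*-/- library 2 (0.0513) or 4 (0.0606). *Slc7a2* in GABA against WT mice missed it without WT library 1 (adjusted p = 0.102), 2 (0.134), 3 (0.0849) or 6 (0.119), without GABA library 2 (0.0702), 3 (0.0842) or 6 (0.066), and with edgeR's filterByExpr (0.0503).

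Depth, nuclear RNA and neutrophil RNA moved with the comparison of *muMt*-/- and WT TAMs. All 4 of the 4 nuclear RNAs listed (*Malat1*, *Neat1*, *Meg3* and *Kcnq1ot1*) were found in each TAM group, and *Malat1* was the most abundant. Their summed share of molecules was 0.317% to 0.389% in WT libraries, 0.469% to 1.05% in *muMt*-/- libraries and 0.349% to 0.534% with GABA, so that the *muMt*-/- range did not overlap that of WT mice. In *muMt*-/- library 4 it was 1.05%, and in the other *muMt*-/- libraries at most 0.606%. The 16 of 16 macrophage markers found had medians of 2.22% (range 1.89% to 2.42%), 1.81% (1.49% to 2.01%) and 2.0% (1.09% to 2.21%) of molecules, with *Ctss* the most abundant. GABA library 1 had the lowest share of macrophage markers and the highest share of nuclear RNA in its group, 1.09% and 0.534%, and was the highest of the group for *Atf4*, *Asns*, *Slc7a11* and *Ddit3* and the lowest for *Slc3a2*. The 7 of 7 fibroblast genes found, led by *Col3a1*, summed to 15.7 to 98.1 normalized molecules in 5 WT libraries and 1000.0 in WT library 6, to 10.9 to 386.0 in *muMt*-/- mice and to 97.5 to 505.0 with GABA. Neutrophil genes summed to medians of 7.59 in WT mice (range 4.26 to 31.4), 22.5 in *muMt*-/- mice (8.62 to 27.4) and 14.4 with GABA (6.64 to 20.1). The part of these in the member values was not tested.

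**Figure D2:**
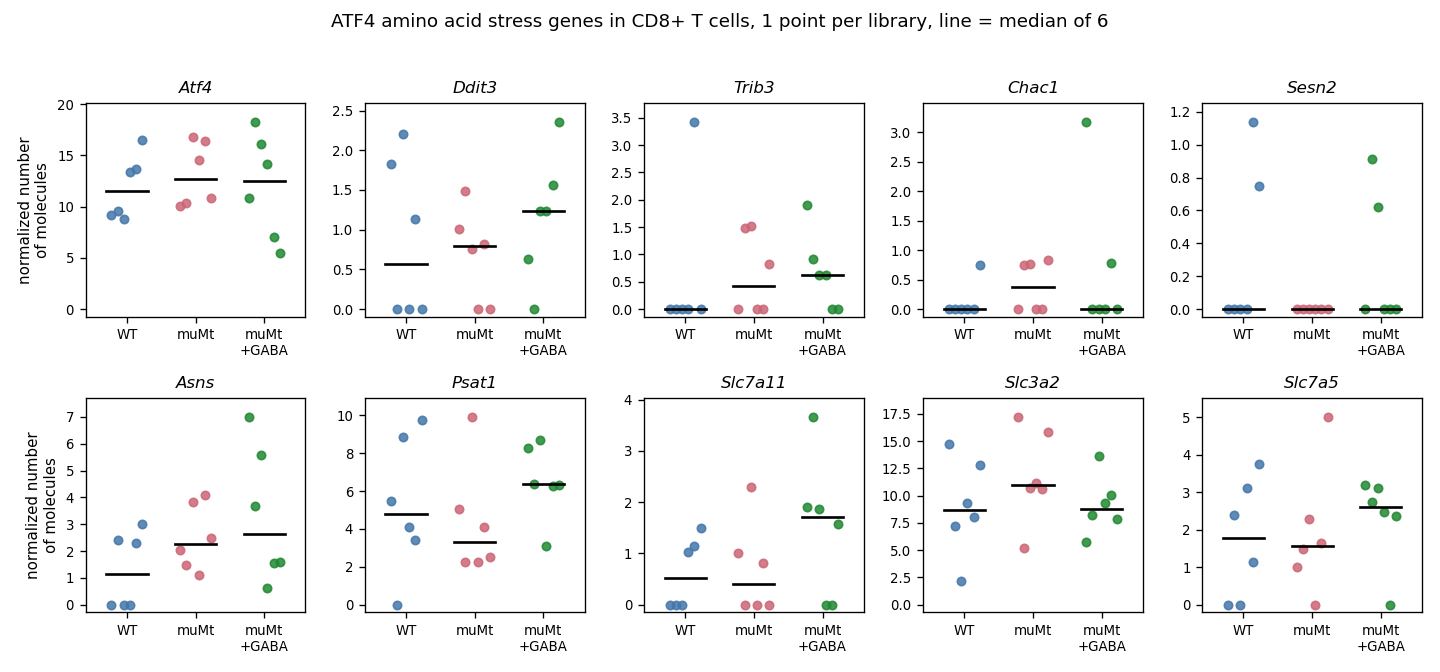
Normalized numbers of molecules of the 10 members in CD8+ T cells, with 1 point per library, 6 libraries per group and a line at the median; each panel has its own vertical axis, which starts near 0. *Atf4* and *Slc3a2* have at least 1 molecule in all 18 libraries, and *Sesn2* has 0 molecules in the *muMt*-/- group.

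In CD8+ T cells the members were sparse, and their levels overlapped between all groups. Of the 10 members 5 were tested, and *Ddit3*, *Trib3*, *Chac1*, *Sesn2* and *Slc7a11* were too low. Comparing *muMt*-/- with WT mice, 0 of 5 passed the edgeR test, against 0% of 6663 genes, and 0 had an unadjusted p under 0.05, against 6.17% of all genes. Comparing GABA with *muMt*-/- mice, 0 of 5 passed, against 0%, and 0 had an unadjusted p under 0.05, against 3.71%. Comparing GABA with WT mice, 0 of 5 passed, against 0%, and 0 had an unadjusted p under 0.05, against 6.89%. DESeq2 called 0 members in each. With no filter on low numbers 72, 11 and 64 of 13109 genes passed in these comparisons, and 0 members. Without WT library 5, 13 of 6667 genes passed for *muMt*-/- against WT mice, and 0 members.

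*Atf4* in CD8+ T cells had a normalized number of 8.84, 11.5 and 16.5 in WT mice, 10.1, 12.7 and 16.8 in *muMt*-/- mice and 5.52, 12.5 and 18.3 with GABA. The groups lay over each other, with library 6 the lowest and library 2 the highest of the GABA group. The log2 fold change of *muMt*-/- against WT mice was 0.17 (SE 0.306, adjusted p = 0.98), with a 95% interval from -0.43 to 0.77. For GABA against *muMt*-/- mice it was -0.09 (SE 0.283, adjusted p = 0.999).

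*Asns* was found in 3 of 6 WT libraries and in all 6 of each *muMt*-/- group of CD8+ T cells. The WT libraries were shallower, with a median of 42065.5 molecules against 67121.5 and 80283, so detection was not compared at equal depth. The normalized number of *Asns* was 0, 1.14 and 3.0 in WT mice, 1.12, 2.26 and 4.09 in *muMt*-/- mice and 0.62, 2.62 and 6.99 with GABA. In each of the latter groups 5 of 6 libraries lay above the WT median. The log2 fold change of GABA against WT mice, 1.25 (SE 0.715, adjusted p = 0.731), had a 95% interval from -0.15 to 2.65, and was 1.85 (adjusted p = 0.635) without CD8+ WT library 6. The all-gene median of that comparison was 0.21 with edgeR's TMM scaling and 0.06 with the size factors of DESeq2, so that log2 values of the CD8+ comparisons with WT mice depend on the scaling by about that shift.

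The other members in CD8+ T cells gave no clearer order. *Psat1* had 0, 4.81 and 9.76 in WT mice, 2.23, 3.29 and 9.91 in *muMt*-/- mice and 3.1, 6.35 and 8.68 with GABA, and its log2 fold change of GABA against *muMt*-/- mice was 0.60 (SE 0.415, adjusted p = 0.999). *Slc3a2* had 2.21, 8.64 and 14.7 in WT mice, 5.2, 10.9 and 17.2 in *muMt*-/- mice and 5.72, 8.76 and 13.6 with GABA. *Slc7a5* had medians of 1.77, 1.56 and 2.61, and *Slc7a11* had 4, 5 and 12 molecules in 3, 3 and 4 of 6 libraries. *Ddit3* had 3, 5 and 10 molecules, *Trib3* 3, 5 and 6, *Chac1* 1, 3 and 6, and *Sesn2* 2, 0 and 2. The 0 of 403660 molecules for *Sesn2* in *muMt*-/- mice allows up to 3 molecules, or 0.000743% of molecules, counting error only. Members were higher in 4 of 5, 3 of 5 and 5 of 5 cases for *muMt*-/- against WT, GABA against *muMt*-/- and GABA against WT mice, with medians of 0.17, 0.27 and 0.28 where all genes had 0.15, 0.03 and 0.21 and 62.3%, 53.5% and 65.5% of them were higher. With DESeq2's size factors 3 of 5 members were higher in each of these comparisons.

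Macrophage RNA in the CD8+ libraries moved with the groups. In WT mice 15 of 16 macrophage markers were found, with *Adgre1* at 0, and they summed to 10.3, 27.6 and 152.0 normalized molecules (lowest, median, highest). In *muMt*-/- mice 16 of 16 were found and summed to 69.5, 103.0 and 510.0, and with GABA 16 of 16 summed to 20.3, 150.0 and 255.0. *Ctss* was the most abundant in each group, and the medians were 0.0482%, 0.181% and 0.26% of molecules, where TAM groups had medians of 1.81% to 2.22%. The T cell list summed to medians of 319.0, 283.0 and 285.0, fibroblast genes to medians of 11.2, 38.2 and 11.8 (at most 77.7 in a library) and neutrophil genes to medians of 0, 3.47 and 2.15 (at most 17.2), and nuclear RNA had medians of 0.424%, 0.334% and 0.307%. Depth moved with the groups as well, as given above. The part of depth and of RNA of these other cells in the member values of these libraries was not tested.

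**Figure D3:**
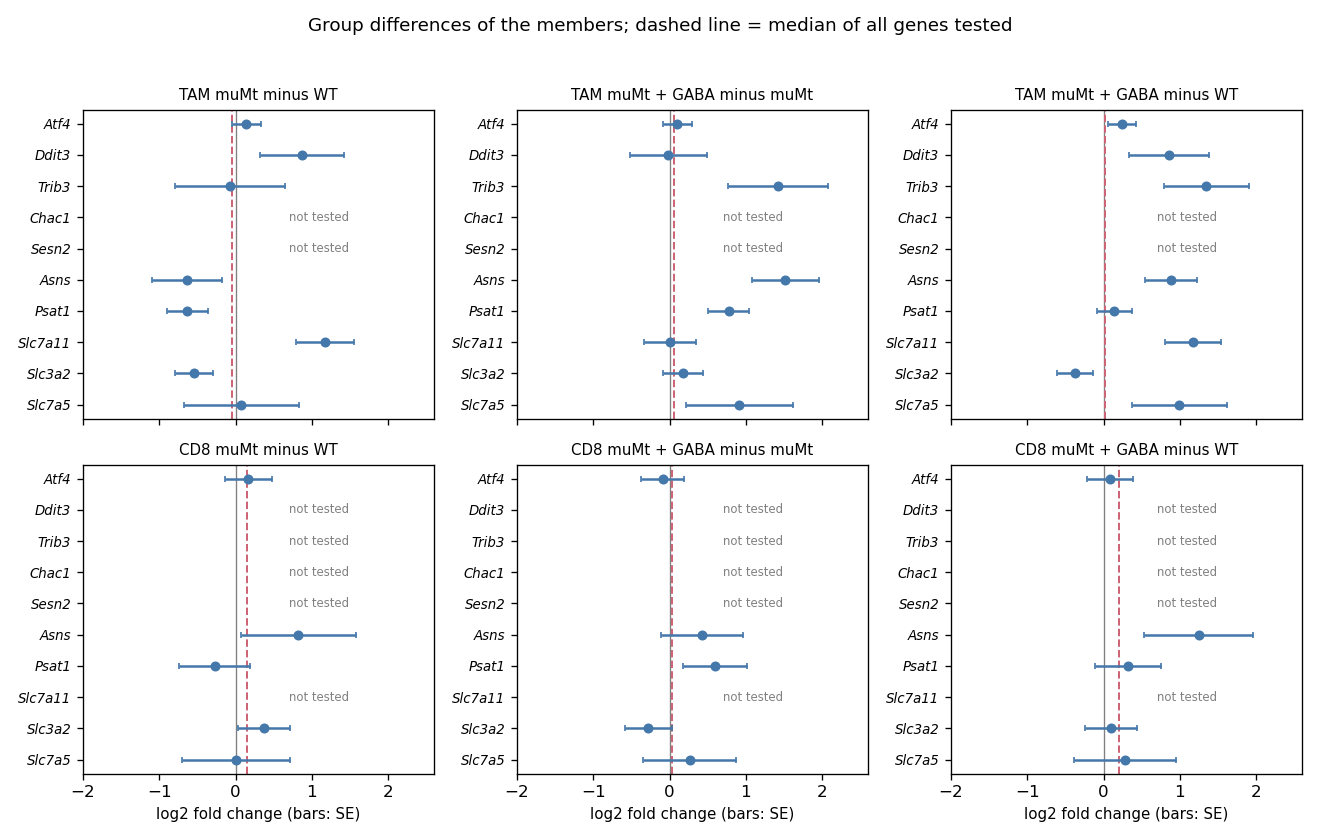
Log2 fold changes of the members in the 6 comparisons within a cell type, with bars for 1 SE to each side, a grey line at 0 and a dashed line at the median of all genes tested. *Asns* and *Trib3* lie furthest to the right for GABA against *muMt*-/- TAMs, at 1.52 and 1.42, and *Slc7a11* for *muMt*-/- against WT TAMs, at 1.17; none of these passed the threshold.

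Whether a difference between conditions was itself different in TAMs and CD8+ T cells was tested in a fit to all 36 libraries, where 8 members were tested. For *muMt*-/- against WT mice 0 of 8 members had an interaction past the threshold, against 0.0118% of 8477 genes. That share was 1 gene, and 79 of 15593 genes passed with no filter. When 1 library was left out it was, for example, 9 without CD8+ WT library 5, 7 without TAM GABA library 1 and 0 without CD8+ WT library 4. *Slc3a2* was the 1 member with an unadjusted p under 0.05, against 10.1% of genes, with an interaction of -0.94 (SE 0.445, adjusted p = 0.452) where the median of all genes was -0.30 with TMM and -0.11 with DESeq2's size factors. With those size factors the interaction was -0.74, and 0 members had an unadjusted p under 0.05. For *Asns* it was -1.49 (SE 0.897, adjusted p = 0.552) and for *Slc7a11* 1.31 (SE 1.25, adjusted p = 0.767). Over the alternatives these ran from -2.22 (without CD8+ WT library 6) to -1.18 for *Asns* and from 0.80 to 2.22 (without CD8+ *muMt*-/- library 3) for *Slc7a11*, none past the threshold. For GABA against *muMt*-/- mice 0 of 8 passed, against 0% of genes, and 0 had an unadjusted p under 0.05, against 4.53%. With no filter 17 of 15593 genes passed, and 0 members. The interaction for *Asns* was 1.04 (SE 0.704, adjusted p = 0.994). DESeq2 called 0 members in both, and gave no adjusted p for 6 members in the former. The member differences are therefore not shown to belong to 1 cell type.

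Between the cell types, *Slc7a11* was higher in TAMs and *Slc7a5* was higher in CD8+ T cells. Of 8 members tested 2 passed, 1 in each direction, where 39.1% of 8477 genes did, and 3 had an unadjusted p under 0.05, against 46% of genes. On a scale common to all 36 libraries, *Slc7a11* had 1.81, 4.93 and 13.8 (lowest, median, highest of 18) in TAMs and 0, 1.5 and 6.07 in CD8+ T cells. It was found in 18 of 18 TAM libraries (188 molecules) and 10 of 18 CD8+ libraries (21 molecules), and the ranges overlapped. TAMs were 3.44-fold higher (log2 fold change 1.78, SE 0.457, adjusted p = 7.59e-05), read against a median of 0.19 for all genes. By group median the order began with 8.79 in *muMt*-/- TAMs, 7.5 in GABA TAMs and 2.92 in GABA CD8+ T cells. Then came 2.82 in WT TAMs, 0.889 in WT CD8+ and 0.677 in *muMt*-/- CD8+ T cells, and neighbours in this order overlapped. The GABA CD8+ group held 12 molecules, in libraries 1, 2, 3 and 6. Macrophage markers there summed to 136.0 to 255.0 normalized molecules, scaled within the cell type. Libraries 4 and 5, with 0 molecules of *Slc7a11*, had sums of 35.3 and 20.3. CD8+ WT library 4 had 1 molecule at a sum of 10.3. The part of macrophage RNA in these values was not tested.

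*Slc7a5* had 0, 1.04 and 2.45 in TAMs (34 molecules, 15 of 18 libraries) and 0, 3.94 and 8.51 in CD8+ T cells (44 molecules, 14 of 18 libraries) on that scale. The CD8+ median lay above the highest TAM library, and some libraries of both were at 0. The log2 fold change of TAMs against CD8+ T cells was -1.75 (SE 0.388, adjusted p = 6.86e-05), a 0.297-fold level. *Slc3a2*, the partner of both, had 6.14, 21.9 and 35.8 in TAMs and 3.7, 16.6 and 28.0 in CD8+ T cells (log2 fold change 0.35, SE 0.178, adjusted p = 0.107). In the 12 libraries of WT mice alone *Slc7a11* did not pass (log2 fold change 1.23, adjusted p = 0.187), *Slc7a5* did, and *Slc3a2* did (0.80, adjusted p = 0.0163). In that fit 2008 of all 8174 genes passed. With edgeR's filterByExpr neither *Slc7a11* nor *Slc7a5* was tested.

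Of the other members tested, *Atf4*, *Psat1*, *Asns* and *Ddit3* had close medians in both cell types on the common scale. *Atf4* had medians of 22.6 in TAMs and 20.6 in CD8+ T cells, *Psat1* of 8.56 and 8.9, *Asns* of 3.53 and 3.54 and *Ddit3* of 1.68 and 1.5. Their log2 fold changes lay between -0.19 and 0.21, with adjusted p from 0.562 to 0.812. *Trib3* had medians of 1.76 and 0 (log2 fold change 0.62, SE 0.565, adjusted p = 0.358), and its log2 fold change was 1.76 (adjusted p = 0.0588) without CD8+ WT library 5 and 0.20 (adjusted p = 0.827) without TAM WT library 5. Of the 3663618 molecules in TAM libraries 17 were *Chac1* and 15 *Sesn2*, and of the 1154683 in CD8+ libraries it was 10 and 4.

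Upstream regulators and partners of ATF4 were measured beside the members. Of the 13 genes for eIF2 kinases and eIF2 regulators, all tested, and of the 8 bZIP factors that can pair with ATF4, none passed the threshold between conditions in either cell type. In *muMt*-/- against WT TAMs 1 of 13 and 2 of 8 had an unadjusted p under 0.05, with list medians of 0.01 and 0.23, and in GABA against *muMt*-/- TAMs it was 0 and 1, with medians of 0.14 and -0.18. In GABA against WT TAMs it was 1 and 0, with medians of 0.12 and 0.15. Other stress-responsive ATF4 targets had 0 of 11 tested past the threshold in each TAM comparison, 5, 3 and 1 with an unadjusted p under 0.05 for *muMt*-/- against WT, GABA against *muMt*-/- and GABA against WT mice, and medians of -0.10, 0.46 and 0.14. In *muMt*-/- against WT TAMs 5 of these targets were higher and 6 lower. Those with an unadjusted p under 0.05 there went in both directions, and the lowest adjusted p in edgeR was 0.0548. Chaperones of the endoplasmic reticulum, targets of XBP1 or ATF6 in a separate branch of the stress response, had 0 of 18 past the threshold in each, 1, 3 and 1 with an unadjusted p under 0.05, and medians of 0.05, -0.04 and -0.06. Of all genes 14.9%, 8.46% and 7.02% had an unadjusted p under 0.05 in these comparisons, with medians of -0.05, 0.06 and 0.02. In CD8+ T cells none of the 8 lists had a gene past the threshold in any comparison, in edgeR or DESeq2, with 0 to 3 genes of a list at an unadjusted p under 0.05. In the interactions of the listed genes that number was also 0 to 3, and none passed in edgeR, while DESeq2 called 1 listed gene and 38 of all 8477 genes for that of *muMt*-/- against WT mice.

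Between cell types genes of all 8 lists passed the threshold, as did 39.1% of all genes, and the counts below are to be read beside that share. With DESeq2's size factors each listed gene past the threshold remained so, and 1 more, *Psph*, passed. Genes named from a list are those with the smallest p, and others of it can have larger fold changes. Of 8 genes for bZIP partners of ATF4, 6 were higher in TAMs and 1 lower. By p these began with *Cebpb*, *Nfe2l2* and *Atf3*, while *Cebpd* had the largest log2 fold change (3.28). *Cebpb* had 29.5, 43.6 and 63.3 in TAMs and 0, 8.57 and 46.1 in CD8+ T cells on the common scale (log2 fold change 2.14, SE 0.28, adjusted p = 6.34e-11), and *Nfe2l2* and *Atf3* had log2 fold changes of 1.85 and 2.24. Of 13 eIF2 genes 2 were higher in TAMs and 0 lower, the kinases *Eif2ak2* (PKR, log2 fold change 1.38) and *Eif2ak1* (HRI, 0.88). Of 18 chaperone genes 15 were higher and 0 lower, among them *Hspa5* (BiP, log2 fold change 0.999), *Sdf2l1* (1.56) and *Pdia3* (0.93). Of 20 synthetases 3 were higher (*Wars* 0.84, *Rars* 0.55 and *Nars* 0.40) and 0 lower.

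Of the 12 transporters tested between cell types 6 were higher in TAMs and 3 lower. *Slc15a3*, a lysosomal carrier of peptides and histidine, was higher (log2 fold change 2.48), as was *Slc7a8*, a light chain that pairs with CD98, with 370 molecules in TAMs and 9 in CD8+ T cells. The glutamine carrier *Slc1a5* was lower (log2 fold change -1.89). Of the 10 genes of serine and proline synthesis 1 was higher, *Got1* (0.85), and 5 lower, among them *Shmt2* (-1.27) and *Phgdh* (-1.08). Of 12 other ATF4 targets 5 were higher and 2 lower, with *Trib1* at 1.90, *Eif4ebp1* at 1.001 and *Ddit4* at -1.07. Of 9 NRF2 and glutathione genes 5 were higher and 0 lower, among them *Prdx1* (1.38), *G6pdx* (1.15) and *Keap1* (1.16). All of these named genes had adjusted p values of 0.0199 or less.

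From mouse to mouse, correlations of the members compared with *Atf4* mRNA had both signs in TAMs and were positive in CD8+ T cells. After subtracting group means, Pearson's r with *Atf4* over the 18 TAM libraries was 0.32 for *Asns*, 0.22 for *Slc7a11*, 0.19 for *Slc7a5*, 0.15 for *Psat1*, -0.23 for *Ddit3*, -0.34 for *Trib3* and -0.51 for *Slc3a2*, where the median of 1589 genes with a mean of at least 20 was -0.08. Of the TAM libraries, GABA library 1 had the highest *Atf4* (63.7) and the lowest *Slc3a2* (10.6). The genes most like *Atf4* among the 1589 were *Pak2* (0.78), *Pmepa1* (0.75) and *Smc1a* (0.74). In CD8+ T cells r was 0.41 for *Asns*, 0.39 for *Slc7a5*, 0.21 for *Slc3a2* and 0.18 for *Psat1*, and *Pabpc1* (0.72), *Canx* (0.68) and *Ywhae* (0.65) were most like *Atf4* among 348 genes. The median of those 348 genes was -0.04. These values describe 18 libraries that share their depth across genes, and in counts this sparse a weak r is no finding. The genes most like *Atf4* were picked as the highest of 1589 and 348 values. Their r was not tested and by itself shows no relation to *Atf4*.

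Promoter sequence shows a feature that some members share. ATF4 pairs with C/EBP factors on a composite element, searched here as TGATGNAAN on both strands in the 250 bases before each gene's start in RefSeq (GRCm38.p6). It was found in 3 of the 9 members with an entry, *Chac1*, *Asns* and *Slc7a11*, and in 1129 of 32851 promoters (3.44%). *Slc7a5* is missing from the table of promoters used. A match is a description of letters, and binding was not measured. The 3 stretches are shown because their genes are the members with a match in these 250 bases. Sequence outside them was not searched. Each is written 5′ to 3′ on the strand of its gene, with the match in capitals. The *Chac1* stretch is chr2:119351038-119351066 (plus strand), with the match on the opposite strand 194 bases before the start. The *Asns* stretch is chr6:7693214-7693242 (minus strand), 23 bases before. The *Slc7a11* stretch is chr3:50443652-50443680 (minus strand), with 2 matches that face each other, 66 and 48 bases before a start that lies inside the longest span annotated for the gene.
Chac1: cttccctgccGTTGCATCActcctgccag
Asns: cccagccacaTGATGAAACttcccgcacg
Slc7a11: cTGATGCAAAcctggagaaTTTGCATCAt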

How the data were processed

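The authors deposited 1 table with the count of distinct barcoded molecules for each of 24781 genes in 36 libraries, without normalization. The submitters' processing notes name STAR and the genome mm10. All columns were used, and groups were taken from the sample labels. Normalized numbers were counts divided by DESeq2's median-of-ratios size factors, over the 18 libraries of a cell type or over all 36.

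Genes with a mean normalized number above 1, the study's own filter, were tested with edgeR 4.0.16 (quasi-likelihood F-test, TMM, 1 coefficient per group) in R 4.3.3, with Benjamini-Hochberg adjustment over all genes tested and a threshold of 0.05. Fits used the 18 libraries of a cell type, or all 36 for TAMs against CD8+ T cells and for interactions. Standard errors came from the quasi-likelihood fit, and the 95% intervals from them. The procedure was tested on simulated data. There, TAMs against CD8+ T cells with TMM gave unchanged genes a shift towards TAMs, and more of them passed than the threshold allows. DESeq2's size factors removed this in the simulated data, and the interactions were not simulated. In the measured data the all-gene median of that comparison was 0.19 with TMM and 0.17 with those size factors. The genes past the threshold were 3318 and 3297 of 8477. Alternatives were DESeq2 1.42.0 (size factors in edgeR, and its Wald test), filterByExpr, no filter, the libraries compared alone, the replicate number as a block and leaving out each library. Descriptions used Python 3.11.15, pandas 2.3.3 and numpy 2.4.6, and figures matplotlib 3.10.9.

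The members, 8 lists of related genes and the lists of markers were written from general knowledge, with earlier results of these data known. All members were named in each comparison, of each list at most the 3 genes with the smallest p among those past the threshold, and the 3 genes most like *Atf4* (Pearson's r of log2(normalized number + 1), genes with a mean of at least 20). Coordinates, promoters and motif matches came from RefSeq on GRCm38.p6, and overlapping genes from the GENCODE annotation of the same build. Counting error sets the floor of 3 molecules for a count of 0. No list was given a set test.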

Additional observations from a re-analysis of the deposited data

Results flagged for a closer look

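In 8 of the 59 groups of 6 libraries in which a member was found, the highest or lowest library of a member lay apart from the others, by a gap above the critical value of Dixon's test. Chance flags about 1 in 20 groups, and 7 of the 8 were in groups with a median under 5. That rate does not hold where all other libraries of a group are at 0, since any molecule is then flagged. Such groups were *Trib3* in CD8+ WT mice (3 molecules), and *Chac1* in TAM WT and CD8+ WT mice (1 molecule each). *Trib3* was highest in TAM WT library 5 at 7.53, in TAM GABA library 6 at 8.31 and in CD8+ WT library 5 at 3.43. *Chac1* was highest in TAM WT library 2 at 0.923, in CD8+ WT library 6 at 0.751 and in CD8+ GABA library 1 at 3.18. *Psat1* was highest in CD8+ *muMt*-/- library 3 at 9.91, and *Slc7a5* was lowest in CD8+ GABA library 5 at 0. No member had an interaction of condition and cell type past the threshold.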

How the results depend on the processing

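The number of members past the threshold was unchanged in all 9 comparisons with DESeq2's size factors and when any 1 library was left out (0 in 8 comparisons and 2 between cell types). In *muMt*-/- against WT TAMs it was 1 instead of 0 with DESeq2's Wald test, with no filter and with the 12 libraries compared alone. In GABA against *muMt*-/- TAMs and in GABA against WT TAMs it was 1 with no filter. Between cell types it was 0 instead of 2 with filterByExpr, which tested 3 members, and 3 with no filter, which tested 10. Of all genes 1661 of 2614 and 3787 of 15593 passed in these fits, against 3318 of 8477 in the main fit. With the replicate number as a replicate block it was 0 in the 8 other comparisons and 2 between cell types, and with condition and number together as the block, run between cell types alone, it was 2 there; with the replicate number, listed genes past the threshold were then 4 and 1 in *muMt*-/- and GABA against WT TAMs. In no pair of groups did all same-numbered libraries correlate above 0.1, so the numbers were not used as pairs in the main fits. Between TAM and CD8+ libraries of the same condition the median r was 0.0304 (WT), 0.0369 (*muMt*-/-) and 0.0546 (GABA). The highest were 0.107, 0.145 and 0.408. Between the *muMt*-/- and GABA groups of CD8+ T cells the median was 0.133 and the highest 0.45. These values do not settle whether libraries of the same number share a mouse. The main fit to 36 libraries treats them as independent. Of 1996 alternative values for single genes, 1969 kept their call, 20 were no longer past the threshold, 7 were newly past it and 0 reversed, and 93 values changed sign without being past the threshold in either fit.

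Listed genes past the threshold in *muMt*-/- against WT TAMs were 3, and 5 with DESeq2's size factors, filterByExpr or 12 libraries, 6 with no filter, and 1 to 5 when 1 library was left out, with 1 without WT library 1 or *muMt*-/- library 4 and 5 without GABA library 1. In GABA against *muMt*-/- TAMs they were 1 with no filter instead of 0. In GABA against WT TAMs they were 1, but 0 with filterByExpr, 2 with no filter and 0 to 1 when 1 library was left out. In CD8+ T cells *muMt*-/- against WT and GABA against WT gave 1 with no filter instead of 0. Between cell types they were 54, 34 with filterByExpr, which tests fewer genes, and 37 in the 12 libraries of WT mice alone. Of all genes 3318 of 8477, 1661 of 2614 and 2008 of 8174 passed in these fits. The interaction for *muMt*-/- against WT gave 1 with DESeq2's Wald test and with no filter instead of 0. Where no cause is given, it was not tested. In CD8+ T cells 5 of 10 members could be tested.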
